A study of Mus musculus with 3 samples.

Results

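The replication-dependent histone genes encode the core and linker histones that package newly made DNA. They were chosen by symbol alone, as the genes whose name in the deposited annotation starts with Hist1h, Hist2h, Hist3h or Hist4h, which gave 69 of 27998 genes. By family these were 6 genes of linker histone H1, 19 of H2A, 19 of H2B, 12 of H3 and 13 of H4. They were picked for study because their summed level had already been seen to differ between these libraries, so every value below is a description and none is a test.

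The study made droplet single-cell libraries of mouse fetal thymic lobes, freed into single cells with trypsin, at embryonic day 13 to 13.5 in the C57BL/6 strain. There was 1 library each of wild-type control embryos, of Tbx1neo2/neo2 embryos and of Foxn11089/1089 embryos. Tbx1neo2/neo2 is a hypomorphic genotype with a neomycin cassette in an intron of Tbx1 on both alleles, used as a model of 22q11.2 deletion syndrome, and Foxn11089/1089 embryos carry a small deletion in both alleles of Foxn1, the main transcription factor of thymic epithelium. How many embryos went into each library was not given in the sources used here. With 1 library per genotype, genotype and library cannot be told apart, and all 95% intervals below are exact and cover counting error only.

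Most mRNAs end in a poly(A) tail, but those of replication-dependent histones end in a short stem-loop that is bound by SLBP, the stem-loop binding protein. They are made in S phase, when DNA is copied, and are degraded when copying stops. The 3′ droplet method primes on runs of A, so mRNAs without a tail are caught poorly, and some histone genes can also give a polyadenylated form through a poly(A) signal downstream of the stem-loop.

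The stem-loop letters are shown first because they are the feature that sets these genes apart from nearly all others. All 69 members were matched to GENCODE M21 genes on GRCm38, 55 on chromosome 13, 11 on chromosome 3, 2 on chromosome 11 and 1 on chromosome 6, and 63 had a single exon. The stem-loop consensus was found in an annotated transcript of 46 members and of 27 of 27578 other genes, 0.0979%. Its most frequent forms are printed 5′ to 3′, with the paired stem in capitals and the loop in lower case.

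26 members, among them Hist1h1c, Hist1h1e, Hist1h2ae, Hist1h2ap and Hist3h2ba: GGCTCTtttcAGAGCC
7 members, all of family H4: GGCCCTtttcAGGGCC
6 members, among them Hist1h3e and Hist1h3c: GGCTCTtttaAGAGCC
2 members, Hist2h4 and Hist1h4i: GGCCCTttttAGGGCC
2 members, Hist1h4j and Hist1h4b: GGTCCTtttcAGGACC

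A further 3 members, Hist1h4a, Hist1h3g and Hist2h2ac, each had a form of their own. In the other 23 the annotated transcript did not hold these letters, and Hist1h1b, Hist1h1a and Hist1h2bc, 3 members with high counts, were among them. Some of these transcripts are short, such as 381 bases in Hist1h2bn, 743 in Hist1h1b and 741 in Hist1h1a. Whether they reach the 3′ end of the mRNA was not checked. A stem-loop or poly(A) signal not found in them may be missing from the annotation only. Members also differed in the 12 bases just before the stem-loop, which are in capitals in the next set. Hist1h2ap and Hist1h2ao have an unbroken run of A there, and Hist1h2ae nearly so.

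Hist1h2ap and Hist1h2ao: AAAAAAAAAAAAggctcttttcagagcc
Hist1h2ae: AAAAAAAACAAAggctcttttcagagcc
Hist1h1e: CAACAACCCAAAggctcttttcagagcc
Hist1h3e: GTAAACCAAAACggctcttttaagagcc

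A poly(A) signal, AATAAA or ATTAAA, stood in the last 50 bases of an annotated transcript in 17 members, 24.6%, against 73.5% of other genes, and 14 of the 17 also had the stem-loop. The last 30 bases of 3 such transcripts are shown because these members lay on both sides of control below, with the signal in capitals. They are Hist3h2ba at chr11:58949504-58949533 (+), Hist1h1c at chr13:23740338-23740367 (+) and Hist1h2ae at chr13:23570517-23570546 (−), all in the 3′ end of a single exon.

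Hist3h2ba: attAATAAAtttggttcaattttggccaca
Hist1h1c: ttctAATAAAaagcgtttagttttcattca
Hist1h2ae: ccAATAAAtgggtcaatttttttcagattc

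Kept cells had at least 200 genes and under 20% mitochondrial UMIs (unique molecular identifiers, 1 per captured molecule), which left 5932 control, 5516 Tbx1neo2/neo2 and 11772 Foxn11089/1089 cells with 81885273, 136517727 and 202825405 UMIs. Tbx1 itself gave 114, 656 and 1102 UMIs in that order, or 1.39, 4.81 and 5.43 CPM (UMIs of the gene per 1000000 UMIs, the unit of every level below). The library labelled Tbx1neo2/neo2 thus held more Tbx1 per UMI than control. Foxn1 stood at 38.4, 34.6 and 76.5 CPM, and 3′ counts do not check the Foxn1 deletion. Between 17 and 28 cell barcodes were shared by pairs of libraries. The marker classes were set by 1 or more UMIs of exactly 1 of the genes Epcam (epithelium), Pdgfra (mesenchyme), Cdh5 (endothelium) and Ptprc (blood cells other than red cells). Cells with UMIs of more than 1 of these genes were in no class and entered only the sums over all kept cells. This rule depends on depth, which differed between the libraries. Each class had every one of its own markers detected in each library, with the other 3 marker lists summing to between 8.25 and 170 CPM. Cells with none of the 4 genes and at least 20% hemoglobin UMIs, 344, 337 and 1838 in number, served as a background of red blood cells.

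The histone genes together took about 3.5-fold fewer of all UMIs in both mutant-labelled libraries than in control. The control library held 221025 histone UMIs, or 2699 CPM (95% interval 2688 to 2710). The library labelled Tbx1neo2/neo2 held 103202, or 756 CPM (751 to 761), and the Foxn11089/1089 library 161313, or 795 CPM (791 to 799). The log2 ratio to control was −1.84 (−1.85 to −1.83) and −1.76 (−1.77 to −1.75), that is 3.57 and 3.39 times lower. Both ratios share the control library, so a property of that library enters both. The log2 ratio of the Foxn11089/1089 library to that labelled Tbx1neo2/neo2 was 0.07.

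The shift lay in the same direction in every marker class. In Epcam-positive cells, the epithelial class, the members summed to 2751 CPM in control, 900 in the library labelled Tbx1neo2/neo2 and 958 in Foxn11089/1089, with log2 ratios of −1.61 (−1.63 to −1.59) and −1.52 (−1.53 to −1.51) over 2115, 843 and 4184 cells. Pdgfra-positive cells gave 2256, 535 and 756 CPM, with ratios of −2.08 (−2.10 to −2.05) and −1.58 (−1.60 to −1.55) over 979, 1458 and 2574 cells. The 48, 98 and 85 Cdh5-positive cells, the smallest class, gave 1601, 429 and 636 CPM and ratios of −1.90 (−2.02 to −1.78) and −1.33 (−1.44 to −1.22). Ptprc-positive cells, the class with the highest control level, gave 3202, 972 and 913 CPM and ratios of −1.72 (−1.75 to −1.69) and −1.81 (−1.85 to −1.78) over 847, 194 and 302 cells. Cells with no marker gave 2569, 649 and 730 CPM, close to the marker classes.

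Hemoglobin cells, which had the lowest histone level, differed least. They held 147, 109 and 107 CPM, with log2 ratios of −0.43 (−0.60 to −0.26) and −0.46 (−0.60 to −0.31). UMIs of 7 red blood cell markers, hemoglobin genes and Alas2, also differed by library inside the other classes. In Epcam-positive cells they took 2621 CPM in control, 8372 in the library labelled Tbx1neo2/neo2 and 41888 in Foxn11089/1089. They took 5877, 4143 and 32207 CPM in Pdgfra-positive, 20523, 27669 and 50152 in Cdh5-positive and 4237, 14148 and 30287 in Ptprc-positive cells. The part of this red cell RNA in the histone ratios was not tested.

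**Figure D1:**
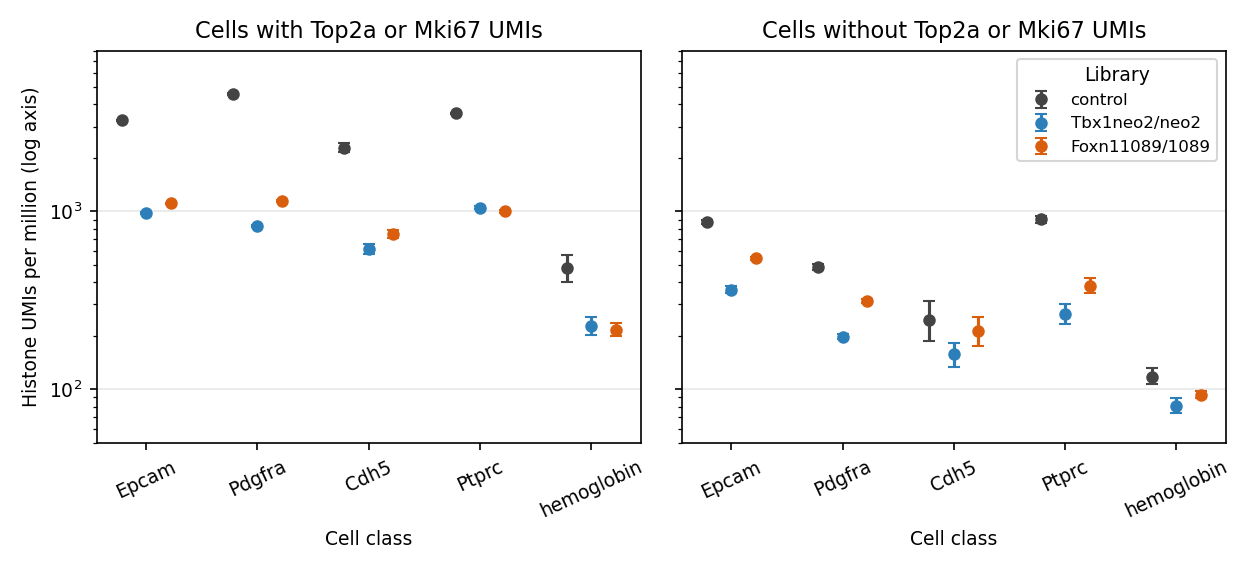
Summed UMIs of the 69 histone genes in CPM (log axis) in each cell class and library, for cells with and without Top2a or Mki67 UMIs, with exact 95% intervals of counting error. In every class and in both kinds of cell, the control library lies above the libraries labelled Tbx1neo2/neo2 and Foxn11089/1089, by the least in hemoglobin cells and in Cdh5-positive cells without these UMIs.

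Per cell, the share of cells with a histone UMI followed the same order once every cell was thinned to 2000 UMIs. It was 84.5% of Epcam-positive control cells, 67.2% in the library labelled Tbx1neo2/neo2 and 71.0% in Foxn11089/1089, leaving out 79, 74 and 233 shallower cells. Unthinned, 99.3%, 98.2% and 96.8% of them had a histone UMI, against 55.7%, 59.3% and 56.0% of hemoglobin cells, whose median depths were 8628, 18593 and 12409 UMIs. The thinned shares were 63.9%, 42.0% and 53.3% in Pdgfra-positive cells, 65.9%, 47.1% and 49.4% in Cdh5-positive cells and 87.8%, 65.3% and 61.1% in Ptprc-positive cells. All of these exceed the thinned 21.1%, 11.4% and 16.8% of hemoglobin cells, the class taken as background. How much of the hemoglobin cells' share is free RNA was not tested.

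Cells in the division cycle carried more histone RNA, in every class and library. Top2a, a DNA topoisomerase of S phase to mitosis, and Mki67, the Ki-67 proliferation antigen, were used to mark them. Over all kept cells, 56.5% of control cells, 43.3% of those labelled Tbx1neo2/neo2 and 44.9% of Foxn11089/1089 cells had a UMI of either gene. Control was not highest in each class. The shares were 70.3%, 72.6% and 60.6% in Epcam-positive and 36.6%, 44.7% and 43.7% in Pdgfra-positive cells. They were 54.2%, 37.8% and 52.9% in Cdh5-positive and 79.6%, 79.9% and 70.5% in Ptprc-positive cells. The members summed to 3494 CPM in control cells with and 680 in cells without such UMIs, 965 and 240 in the library labelled Tbx1neo2/neo2, and 1055 and 344 in Foxn11089/1089. Cells with these UMIs thus held 5.14, 4.01 and 3.07 times the level of the others, log2 ratios of 2.36, 2.0 and 1.62. This order of the libraries did not hold with every cell thinned to 2000 UMIs and sorted anew on the thinned counts, which gave 1.54, 1.69 and 1.52. With cells sorted by all their UMIs before thinning, it held in the Epcam, Pdgfra and Ptprc classes, on the means given below. In the Cdh5 class it did not hold between the library labelled Tbx1neo2/neo2 and Foxn11089/1089. Of single members, 54 of 59 were at least 2-fold higher in such cells in control (6.7% of all genes), 44 of 58 in the library labelled Tbx1neo2/neo2 (11.2%) and 49 of 58 in Foxn11089/1089 (13%). Without thinning, control Pdgfra-positive and Cdh5-positive cells had the widest gap, 9.29 and 9.26 times, against 4.20 and 3.93 in the library labelled Tbx1neo2/neo2 and 3.66 and 3.53 in Foxn11089/1089. Epcam-positive cells had 3.74, 2.69 and 2.04 times and Ptprc-positive cells 3.94, 3.94 and 2.61 times.

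The libraries lay below control in both kinds of cell, and without thinning by more in cells with Top2a or Mki67 UMIs in most classes. In Cdh5-positive Foxn11089/1089 cells without these UMIs the interval held 0. In cells with Top2a or Mki67 UMIs the log2 ratios to control of the library labelled Tbx1neo2/neo2 were −1.73 for Epcam, −2.45 for Pdgfra, −1.88 for Cdh5 and −1.76 for Ptprc. Those of Foxn11089/1089 were −1.55, −1.99, −1.61 and −1.83. In cells without such UMIs the ratios were −1.26, −1.30, −0.64 (−1.07 to −0.20) and −1.77, and −0.67, −0.64, −0.22 (−0.67 to 0.25) and −1.24. Ptprc-positive cells of the library labelled Tbx1neo2/neo2 were thus alike in both kinds of cell. The sorting of cells depends on depth. Every cell was therefore thinned to 2000 UMIs and sorted anew on the thinned counts. Cells whose Top2a and Mki67 UMIs were all lost in thinning then counted as without. The ratios over all kept cells without such UMIs went from −1.50 to −2.0 and from −0.99 to −1.67. Those in cells with them were −1.84 and −1.68. When sorted anew, the wider difference over all kept cells in cells with these UMIs thus did not hold. Sorted by all their UMIs, thinned Epcam-positive cells (control first) held a mean of 6.39, 1.78 and 2.21 histone UMIs with and 1.77, 0.876 and 1.16 without. Pdgfra-positive cells held 8.02, 1.48 and 2.23, and 1.01, 0.407 and 0.642. Cdh5-positive cells held 5.0, 1.3 and 1.69, and 0.579, 0.537 and 0.647. Ptprc-positive cells held 6.99, 1.82 and 1.97, and 1.81, 0.486 and 0.651. Sorted so, the difference was wider in cells with these UMIs in the Epcam, Pdgfra and Cdh5 classes.

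The histone families did not differ alike. Linker histone H1, which binds the DNA between nucleosomes, held 1358 CPM in control and 153 and 186 CPM in the libraries labelled Tbx1neo2/neo2 and Foxn11089/1089, with log2 ratios of −3.15 and −2.87. H2A held 661, 374 and 294 CPM (−0.82 and −1.17), and H2B, its partner in the nucleosome, 292, 127 and 217 CPM (−1.20 and −0.43). H3 held 161, 26.8 and 27.0 CPM (−2.59 and −2.58), and its partner H4 227, 75.8 and 72.5 CPM (−1.58 and −1.65). H1 therefore made up 50.3% of histone UMIs in control but 20.2% and 23.3% in the other libraries, where H2A was the most frequent family with 49.5% and 36.9%, against 24.5% in control.

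H1 and H3 had the lowest ratios of the families in each marker class and comparison. H1 was lower by log2 ratios between −3.50 and −2.18 over the 4 classes and both comparisons, and H3 between −3.02 and −1.99. H2A ratios lay between −1.11 and −0.60, and H2B between −1.50 and −0.18. Families also differed in how far they followed Top2a and Mki67. Over all kept cells, H1 was 9.19, 5.58 and 5.62 times higher in cells with these UMIs and H2A 8.4, 9.02 and 7.37 times. H2B was 1.33, 1.24 and 1.16 times higher there, but went both ways by class. It stood at 0.859, 0.856 and 0.879 times in Epcam-positive and 2.08, 1.16 and 0.855 times in Pdgfra-positive cells. In Cdh5-positive cells it stood at 2.87, 0.875 and 0.835 times and in Ptprc-positive cells at 1.1, 1.24 and 0.645 times.

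**Figure D2:**
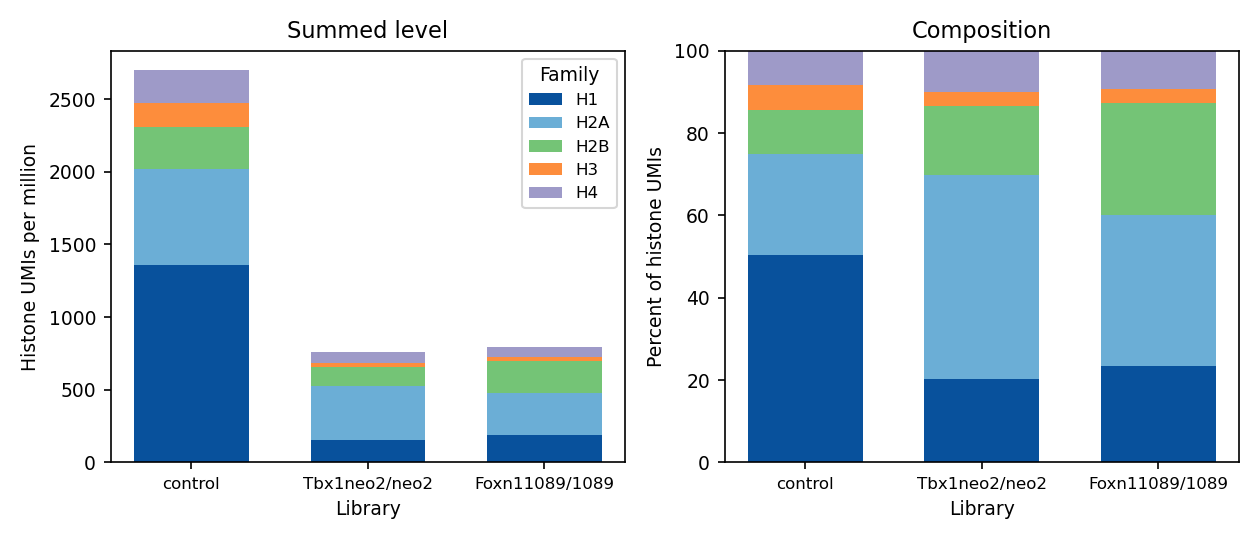
Histone UMIs of each library by family over all kept cells, as stacked CPM (left, bars from 0) and as percent of all histone UMIs (right). The control bar reaches 2699 CPM against 756 and 795, and H1 takes 50.3% of histone UMIs in control and 20.2% and 23.3% in the other libraries, where H2A and H2B take larger shares.

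A few members carried most of the signal: the 12 highest held 88.5%, 87.0% and 88.9% of histone UMIs in the 3 libraries. Hist1h1b alone held 36.5% in control, and Hist1h2ap 36.9% and 22.6% in the libraries labelled Tbx1neo2/neo2 and Foxn11089/1089. The members without any UMI in a library were Hist1h2ba and Hist1h2aa in all 3, Hist1h2br in control and in the library labelled Tbx1neo2/neo2, Hist2h2aa2 in control and Foxn11089/1089, and Hist1h2bq in Foxn11089/1089, where a count of 0 allows up to 3 UMIs in the library. Counts were of uniquely mapped reads, so the near-identical copies Hist2h2aa1 and Hist2h2aa2, Hist1h2ao and Hist1h2ap, and the pair of genes named Hist2h2bb are uncertain, as are 8 members that overlap another gene on the same strand. Levels are not comparable between members as mRNA amounts, because tailed and untailed ends are not caught alike.

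With at least 30 UMIs over both libraries, 44 of 63 members were at least 2-fold lower in the library labelled Tbx1neo2/neo2 than in control and 2 were at least 2-fold higher. Over all 16654 genes so compared, 5.06% were as much lower and 23.1% as much higher. The members' median log2 ratio was −1.62, that of all genes 0.42. In Foxn11089/1089, 44 of 64 members were at least 2-fold lower and 5 higher, against 10.3% and 14.0% of all genes, with medians of −2.03 and 0.16. Scaling by the median gene (median-of-ratios size factors) lowers every log2 ratio over all kept cells by 0.42 in the first comparison and 0.17 in the second, after which 0 members in place of 2 were at least 2-fold higher in the library labelled Tbx1neo2/neo2. Since the members were picked for this contrast, these shares describe them and add no support.

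The same count was made in each class. Among Epcam-positive cells 39 of 57 members were at least 2-fold lower and 4 higher in the library labelled Tbx1neo2/neo2 (4.87% and 16.5% of genes), and 37 of 60 lower and 6 higher in Foxn11089/1089 (9.04% and 14.7%). Pdgfra-positive cells had 37 of 51 lower and 2 higher (3.9% and 17.9%), and 37 of 52 lower and 3 higher (4.51% and 5.45%). Ptprc-positive cells had 39 of 53 lower and 2 higher (2.92% and 14.9%), and 38 of 52 lower and 2 higher (5.83% and 11.4%). Only 13 and 12 members had enough UMIs in Cdh5-positive cells, of which 6 and 6 were at least 2-fold lower and 3 and 1 higher (4.83% and 23.4%, then 5.07% and 8.41% of genes).

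Of the 51 members with enough UMIs in the Epcam, Pdgfra and Ptprc classes, 34 were at least 2-fold lower in all 3 classes in the library labelled Tbx1neo2/neo2 and 32 in Foxn11089/1089. The ratio was below 0 in all 3 classes for 43 and 42 members and above 0 in all 3 for 5 and 4. Hist1h1c, Hist3h2a and Hist3h2ba were above 0 in both comparisons, joined by Hist1h4b and Hist2h2be in the first and Hist1h3c in the second. Median-of-ratios scaling lowers the ratios of these 3 classes by 0.36 to 0.39 in the first comparison and by 0.17 to 0.21 in the second, which takes Hist3h2ba in Pdgfra-positive cells (0.18) and Hist1h4b in Epcam-positive cells (0.09) below 0 and Hist2h2be in Ptprc-positive cells (0.36) to about 0, all in the first. A further 3 and 5 members had ratios on both sides of 0.

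Compared with each other, the libraries labelled Tbx1neo2/neo2 and Foxn11089/1089 differed less in summed histone UMIs than either did from control. Of 62 members compared, 1 was at least 2-fold higher in Foxn11089/1089, the H2B gene Hist3h2ba (49.6 and 110 CPM), and 3 were at least 2-fold lower, Hist1h2ao, Hist1h4b and Hist1h2al, where 3.92% and 13.6% of all genes were as far apart. The log2 ratio of the histone sum was 0.09 in Epcam-positive, 0.50 in Pdgfra-positive, 0.57 in Cdh5-positive and −0.09 in Ptprc-positive cells.

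**Figure D3:**
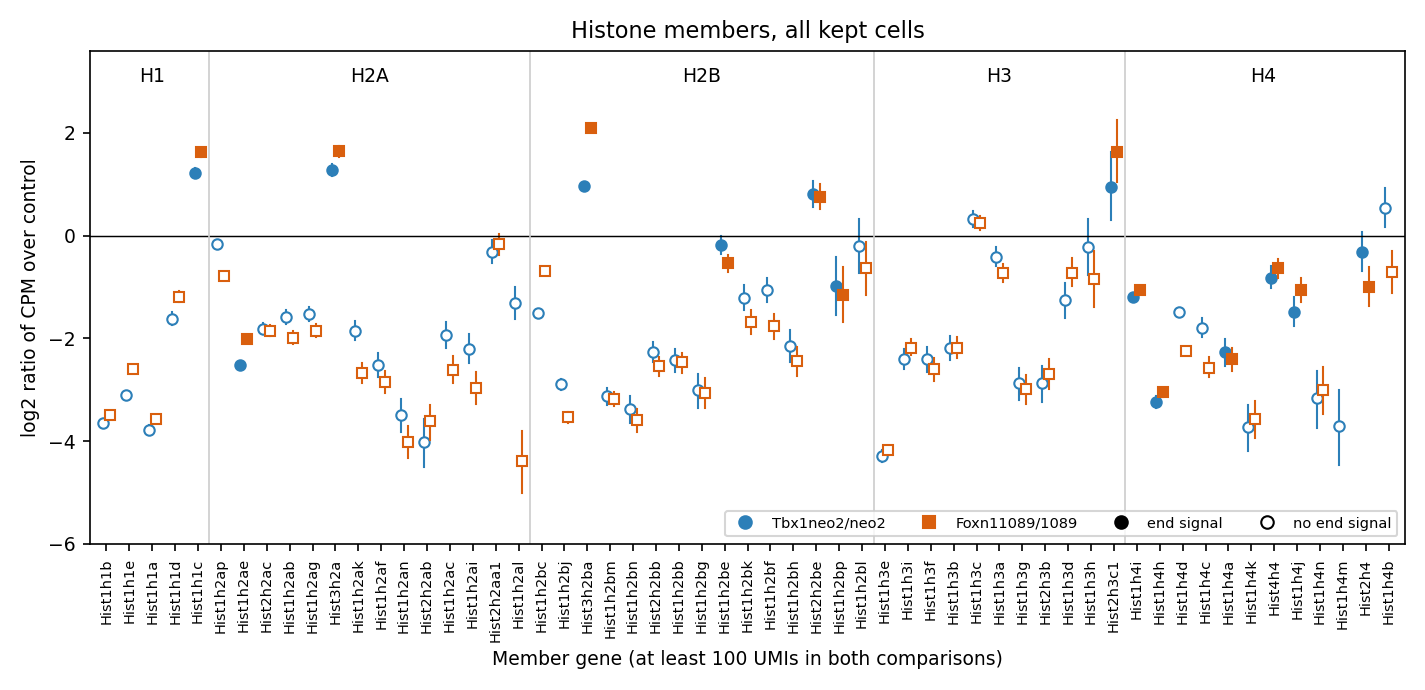
Log2 ratio of CPM to control over all kept cells for 57 histone genes with at least 100 UMIs in both comparisons, grouped by family, with circles for the library labelled Tbx1neo2/neo2, squares for Foxn11089/1089, filled symbols for the 14 genes with an annotated poly(A) signal near a transcript end, and exact 95% counting intervals as bars. Both comparisons share the control library, and most genes lie below 0 in both, while Hist1h1c, Hist3h2a, Hist3h2ba, Hist2h2be, Hist2h3c1 and Hist1h3c lie above 0 in both, of which Hist1h3c would lie below 0 in the first comparison under median-of-ratios scaling.

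Among the linker histones, Hist1h1b (H1.5; chr13:21779883-21780625, −) accounted for most of the difference. It gave 986 CPM in control, 79.3 in the library labelled Tbx1neo2/neo2 and 87.0 in Foxn11089/1089, with log2 ratios of −3.64 (−3.66 to −3.61) and −3.50 (−3.53 to −3.48). By class it stood at 971, 91.3 and 83.7 CPM in Epcam-positive cells, 783, 51.9 and 100 in Pdgfra-positive cells, 616, 28.2 and 106 in Cdh5-positive cells and 1233, 119 and 171 in Ptprc-positive cells. No marker class of either other library came within 5-fold of its control level. In cells with Top2a or Mki67 UMIs it was 14.2 times higher in control, 33.0 in the library labelled Tbx1neo2/neo2 and 26.0 in Foxn11089/1089. These 3 values depend on depth through the sorting of cells and were not repeated on thinned cells.

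Hist1h1e (H1.4) and Hist1h1a (H1.1) were lower by a like amount. Hist1h1e had 249, 29.0 and 41.2 CPM (−3.10 and −2.60) and Hist1h1a 92.2, 6.69 and 7.73 CPM (−3.78 and −3.58). Hist1h1d (H1.3) was lower by less, with 16.3, 5.31 and 7.13 CPM (−1.62 and −1.19). Hist1h1c (H1.2; chr13:23738808-23740367, +), the member of the family with the poly(A) signal shown above, was instead higher in both libraries, with 13.8, 32.1 and 42.4 CPM and log2 ratios of 1.22 (1.12 to 1.31) and 1.62 (1.53 to 1.71). It was higher in each of the marker classes, with 16.1, 33.5 and 55.0 CPM in Epcam-positive cells, 11.9, 24.5 and 28.4 in Pdgfra-positive cells and 13.4, 38.1 and 42.5 in Ptprc-positive cells. In Cdh5-positive cells it stood at 5.27, 22.1 and 29.4 CPM, the control value resting on 4 UMIs. It differed little between cells with and without Top2a or Mki67 UMIs, by 1.25, 1.28 and 1.58 times.

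In the H2A family, Hist1h2ap (chr13:21833026-21833507, −) differed least from control in the library labelled Tbx1neo2/neo2 among the 12 members with the most control UMIs. It gave 312 CPM in control, 279 in the library labelled Tbx1neo2/neo2 and 180 in Foxn11089/1089, with ratios of −0.16 (−0.18 to −0.14) and −0.79 (−0.82 to −0.77). This is the member with the run of A just before its stem-loop, and 3 bases past the stem-loop its annotated transcript ends. It followed the cycle markers closely, being 11.3, 35.2 and 23.0 times higher in cells with Top2a or Mki67 UMIs. Runs of at least 10 A were also found in Hist1h2ac, Hist1h2ao and Hist1h2be, though only in Hist1h2ao just before the stem-loop. Hist1h2ao had 22, 27 and 15 UMIs, with ratios of −0.44 (−1.31 to 0.44) and −1.86 (−2.91 to −0.85). Hist1h2be had 5.67, 4.98 and 3.89 CPM (−0.19 and −0.54) and Hist1h2ac 5.01, 1.31 and 0.818 CPM (−1.93 and −2.61).

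Hist1h2ae, which has both the near-unbroken A stretch and a poly(A) signal, was lower, with 237, 41.2 and 58.8 CPM (−2.52 and −2.01). Hist1h2an and Hist1h2af, both chosen for a wide gap between cells with and without cycle markers in control (12.6 and 15.2 times), were lower too, with 8.04, 0.711 and 0.498 CPM and 8.70, 1.52 and 1.21 CPM. Hist3h2a (chr11:58954685-58956830, +), which lies beside Hist3h2ba and overlaps Trim17 on the same strand, was higher in both libraries with 10.3, 24.9 and 32.0 CPM, or log2 ratios of 1.28 (1.17 to 1.39) and 1.64 (1.54 to 1.75). Its reads cannot be fully told from those of Trim17. In cells with Top2a or Mki67 UMIs it stood at 0.72 times the level of the other cells in control, 0.672 in the library labelled Tbx1neo2/neo2 and 1.11 in Foxn11089/1089.

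H2B members went both ways. Hist3h2ba (chr11:58948920-58949533, +) was the member furthest above control in Foxn11089/1089 among those named, with 25.6, 49.6 and 110 CPM and ratios of 0.96 (0.89 to 1.03) and 2.10 (2.04 to 2.17). In Epcam-positive cells it stood at 34.5, 78.5 and 168 CPM, against 38.9, 44.0 and 88.8 in Pdgfra-positive cells and 10.1, 16.6 and 17.1 in Ptprc-positive cells. It was not higher in cells with Top2a or Mki67 UMIs, at 0.669 times the level of the other cells in control, 0.785 in the library labelled Tbx1neo2/neo2 and 0.995 in Foxn11089/1089. Hist1h2bc, the H2B member with the most control UMIs, gave 134, 47.5 and 83.3 CPM (−1.50 and −0.69) and was also near level between cells with and without these UMIs (0.705, 1.27 and 1.14 times). Hist1h2bj and Hist1h2bn were lower by more, with 51.8, 6.97 and 4.44 CPM (−2.89 and −3.54) and 11.3, 1.08 and 0.932 CPM (−3.38 and −3.60).

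Hist1h3e (chr13:23561534-23562369, −), which held most control UMIs of the H3 family, had the lowest ratios of the 12 members with the most control UMIs, with 110 CPM in control, 5.63 in the library labelled Tbx1neo2/neo2 and 6.07 in Foxn11089/1089. The log2 ratios were −4.29 (−4.40 to −4.18) and −4.18 (−4.27 to −4.09). By class the ratios ran from −5.57 in Cdh5-positive cells, on 4 UMIs, to −3.97 in Pdgfra-positive cells in the library labelled Tbx1neo2/neo2, and from −4.24 in Ptprc-positive cells to −3.46 in Pdgfra-positive cells in Foxn11089/1089. Hist1h3c, another H3 gene with the same stem-loop letters as Hist1h3e, was near level at 6.72, 8.39 and 7.94 CPM (0.32 and 0.24).

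The H4 genes encode 1 protein, so their differences are differences between gene copies. Hist1h4i gave 101, 44.3 and 48.3 CPM (−1.19 and −1.06), Hist1h4h 49.9, 5.27 and 6.00 CPM (−3.24 and −3.05) and Hist1h4d 42.4, 15.1 and 8.93 CPM (−1.49 and −2.25). Hist1h4i and Hist1h4h both have an annotated poly(A) signal and differ in ratio all the same. Hist1h4m, which shares reads with near copies, gave 148, 19 and 1 UMIs.

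**Figure D4:**
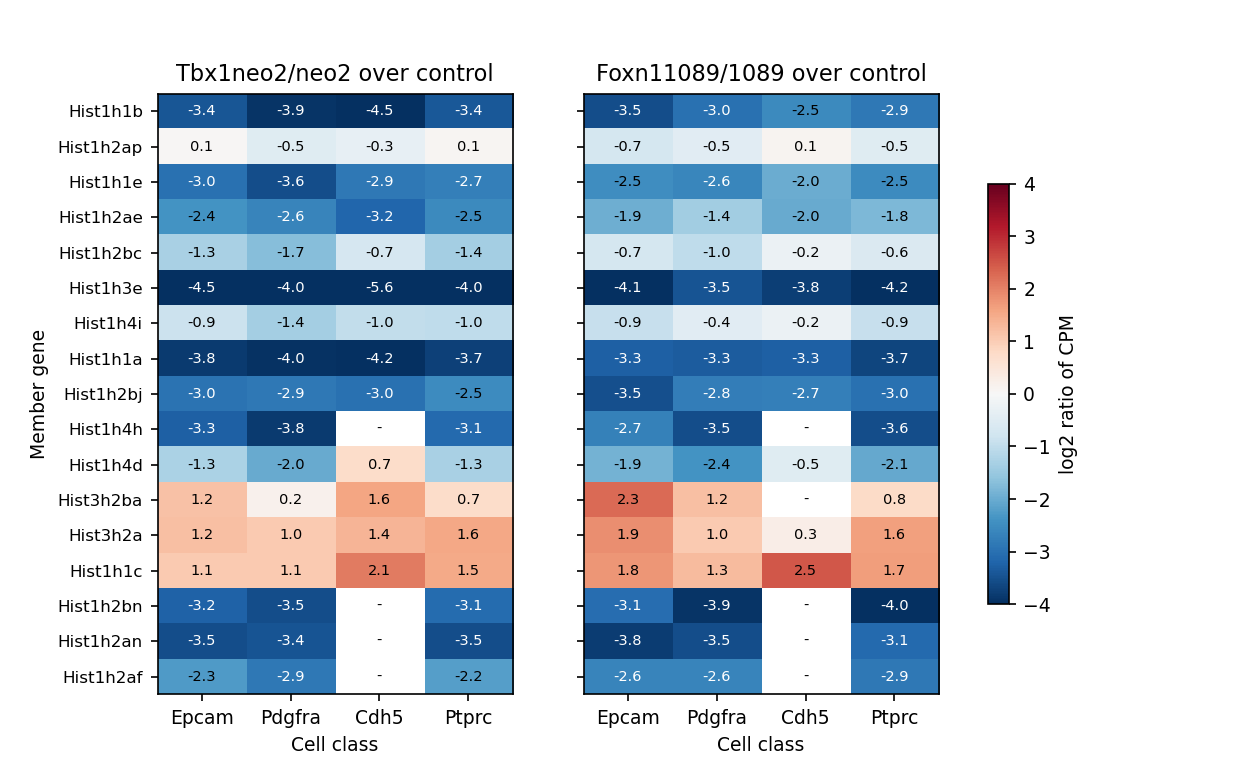
Log2 ratio of CPM to control of the 17 named histone genes in the 4 marker classes, in the library labelled Tbx1neo2/neo2 (left) and in Foxn11089/1089 (right), with blue below and red above control, and a dash where both libraries together held fewer than 30 UMIs. Hist1h1b, Hist1h1e, Hist1h1a and Hist1h3e lie below control in every class and Hist1h1c and Hist3h2a above it, while Hist3h2ba in Pdgfra-positive cells of the library labelled Tbx1neo2/neo2 lies above by 0.18, less than the 0.39 that median-of-ratios scaling takes off.

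Members split by the annotated poly(A) signal differed in their ratios, a division that was chosen after the values were seen. With the signal, the median log2 ratio was −0.82 over 15 members in the library labelled Tbx1neo2/neo2 (6 at least 2-fold lower, 2 higher) and −1.0 over 15 in Foxn11089/1089 (8 lower, 4 higher). Without it, the medians were −1.90 over 48 members (38 lower, 0 higher) and −2.44 over 49 (37 lower, 1 higher). The same order of medians held in the Epcam class (−0.36 and −0.33 with, −2.10 and −2.20 without), in the Pdgfra class (−0.65 and −0.60, −2.32 and −2.29) and in the Ptprc class (−0.81 and −0.55, −1.94 and −2.57).

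Summed, members with the signal held 462 CPM in control, 213 in the library labelled Tbx1neo2/neo2 and 313 in Foxn11089/1089 (−1.11 and −0.56). Those without it held 2238, 543 and 483 CPM (−2.04 and −2.21). Hist1h1b gave 986 of these 2238 control CPM. A member can be in this set because its annotated transcript ends early, which was not checked. In cells with Top2a or Mki67 UMIs the first set had ratios of −1.28 and −0.64 and the second of −2.01 and −2.09. In cells without these UMIs the first set had ratios of −0.16 and 0.32 and the second of −2.54 and −1.97. By class, the first set in cells without them gave −0.02, −0.20, 0.84 (−0.00 to 1.80) and −0.41 in the Epcam, Pdgfra, Cdh5 and Ptprc classes of the library labelled Tbx1neo2/neo2. In Foxn11089/1089 it gave 0.71, 0.50, 0.78 (−0.13 to 1.79) and −0.03. Members with the signal made up 17.1% of histone UMIs in control, 28.2% in the library labelled Tbx1neo2/neo2 and 39.3% in Foxn11089/1089.

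Every matched promoter of H1, H2A, H2B and H3 members held the letters CCAAT, and those of the 2 members printed here, 1 below and 1 above control, both held CCAAT and TATAAA. In RefSeq windows on GRCm38.p6 from 250 bases before the start to 50 after it, 60 members were matched and searched on both strands for 3 motifs that do not overlap in letters. CCAAT, the box bound by NF-Y, was found in 85.0% of members and 37.4% of all 32851 promoters, TATAAA, the TATA box, in 58.3% and 13.6%, and ATTTGCAT, the octamer bound by Oct-1, in 20% and 1.74%. The octamer was found in 41.2% of H2A and 33.3% of H2B members and in none of H1, H3 and H4, and CCAAT in 25% of H4 members. The promoters of Hist1h1b, chr13:21780576-21780875 (−), and of Hist3h2ba, chr11:58948661-58948960 (+), are shown for a member far below and a member far above control, with motif letters on either strand in capitals. A match is a description of letters and not a bound site.

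Hist1h1b: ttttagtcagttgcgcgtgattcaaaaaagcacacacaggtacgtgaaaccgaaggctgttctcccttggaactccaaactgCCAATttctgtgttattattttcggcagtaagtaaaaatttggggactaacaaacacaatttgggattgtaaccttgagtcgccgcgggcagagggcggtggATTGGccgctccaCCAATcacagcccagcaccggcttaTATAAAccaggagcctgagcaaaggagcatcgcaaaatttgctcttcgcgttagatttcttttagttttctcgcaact
Hist3h2ba: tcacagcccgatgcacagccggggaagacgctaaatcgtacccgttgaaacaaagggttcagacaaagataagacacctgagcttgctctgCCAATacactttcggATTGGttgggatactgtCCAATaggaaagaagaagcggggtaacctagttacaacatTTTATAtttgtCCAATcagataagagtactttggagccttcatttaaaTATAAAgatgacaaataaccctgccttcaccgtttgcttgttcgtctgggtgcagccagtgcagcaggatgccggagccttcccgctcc

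Several signs of RNA composition differed between the libraries along with the histone sum. Gm42418, a transcript that overlaps ribosomal RNA repeats, took 0.67% of UMIs in control, 0.0247% in the library labelled Tbx1neo2/neo2 and 0.0183% in Foxn11089/1089. Its log2 ratios were −5.03 and −5.18 in Epcam-positive cells, −5.38 and −5.66 in Pdgfra-positive cells, −3.07 and −3.85 in Cdh5-positive cells, −4.30 and −4.78 in Ptprc-positive cells and −5.71 and −5.68 in hemoglobin cells. AY036118, of the same repeats, was lower too (−3.53 and −3.34 over all kept cells), as was Lars2, a mitochondrial tRNA synthetase (−3.58 and −4.10). Mitochondrial UMIs were 2.70%, 5.73% and 4.86% of all UMIs, and ribosomal protein genes 24.6%, 19.9% and 18.4%. Malat1, a nuclear RNA, gave 5122, 10805 and 6489 CPM over all kept cells. Its ratios in the Epcam, Pdgfra, Cdh5 and Ptprc classes were 0.80, 0.57, 2.04 and 1.22 in the library labelled Tbx1neo2/neo2 and 0.35, −0.19, 0.01 and 0.33 in Foxn11089/1089. The part of these shifts in the histone ratios was not tested, and a shift alike in every class, library by library, cannot be told apart from a difference in how the libraries were made.

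**Figure D5:**
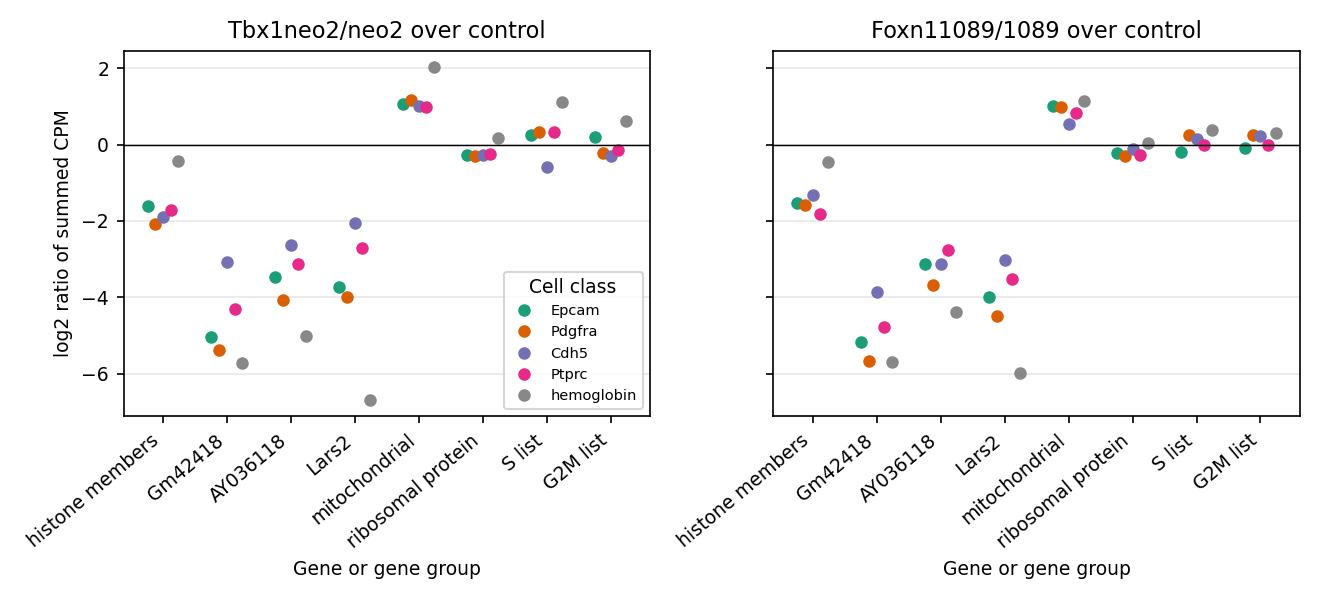
Log2 ratio of summed CPM to control by cell class, in the library labelled Tbx1neo2/neo2 (left) and in Foxn11089/1089 (right), of the histone genes beside Gm42418, AY036118, Lars2, mitochondrial genes, ribosomal protein genes and the S phase and G2/M lists, with 1 point per class. The histone genes, Gm42418, AY036118 and Lars2 lie below 0 in every class, mitochondrial genes above 0, and the S phase list between −0.58 and 0.32 in the marker classes.

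Over all kept cells, other genes of the cell cycle and of histone supply had list medians nearer 0 than the histone genes, and their counts past 2-fold stand beside the shares of all genes given above, 5.06% lower and 23.1% higher in the library labelled Tbx1neo2/neo2 and 10.3% and 14.0% in Foxn11089/1089. The 24 genes of the S phase list, of DNA replication, had 0 members past 2-fold in either comparison over all kept cells, with medians of 0.01 and −0.34, and the 20 genes of the G2/M list also 0, with medians of 0.17 and 0.07. Of the marker classes, only Cdh5-positive cells of the library labelled Tbx1neo2/neo2 had S phase genes at least 2-fold lower, 5 of the 24, with a median of −0.60. There 2 of 14 chaperone genes were lower and 2 higher, where 4.83% and 23.4% of all genes were. In Foxn11089/1089, 3 of the 20 G2/M genes were at least 2-fold higher in Pdgfra-positive cells (5.45% of all genes) and 2 in Cdh5-positive cells (8.41%). Other classes also had genes of these lists past 2-fold. Top2a and Mki67 had ratios of 0.46 and 0.72 in the library labelled Tbx1neo2/neo2 and of 0.16 and 0.59 in Foxn11089/1089. Slbp gave 190, 186 and 170 CPM (−0.03 and −0.16). Of 14 genes of histone mRNA processing, 1 was past 2-fold in each comparison: Zfp473, a zinc finger protein of the 3′ end complex (1.21, on 43 control and 166 other UMIs), and Cstf3, a cleavage factor subunit (1.04, from 27.6 to 56.9 CPM). The lowest ratios of that list were Upf1, a helicase of RNA decay (−0.32 and −0.74), and Lsm11, a protein of the U7 particle (−0.12 and −0.94).

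Histone chaperones and assembly factors, 14 genes, had medians of 0.21 and −0.03, with 0 past 2-fold in the library labelled Tbx1neo2/neo2 and 1 in Foxn11089/1089. Atrx, a remodeller that deposits H3.3, is that 1 and had the highest ratios, 0.90 and 1.0, and Supt16, a subunit of the FACT complex, the lowest, −0.62 and −0.71. A list of 11 histone variant genes, taken as replication-independent, had medians of −0.32 and −0.22. H2afz (H2A.Z) gave 4321, 1976 and 2000 CPM (−1.13 and −1.11) and H2afj 390, 174 and 176 CPM (−1.17 and −1.15), the only members of the list past 2-fold. The 2 H3.3 genes went opposite ways. H3f3a was above control at 1674, 2299 and 2751 CPM (0.46 and 0.72). H3f3b, the one with more control UMIs, was below it at 3512, 2129 and 3112 CPM (−0.72 and −0.17).

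Within cycling cells, an S phase lean went with more histone RNA in control over all kept cells and in the Epcam and Ptprc classes, but not in the other 2 classes. Cells with Top2a or Mki67 UMIs were divided by whether their S phase or their G2/M list share was relatively higher, with 319, 182 and 452 cells near the dividing line. The histone sum was 3893 CPM in S-leaning and 2961 in G2/M-leaning control cells, 1.31 times. Over all kept cells of the library labelled Tbx1neo2/neo2 it was 957 and 976 CPM and in Foxn11089/1089 1043 and 1071 CPM, ratios near 1. By class the log2 difference was 0.44, 0.00 and −0.02 in Epcam-positive cells, 0.45, 0.22 and 0.27 in Ptprc-positive cells and −0.18, −0.37 and −0.25 in Pdgfra-positive cells. Cdh5-positive cells gave 0.00, −1.53 (−1.75 to −1.30) and 0.03, the −1.53 coming from 304 CPM in 16 S-leaning and 875 CPM in 21 G2/M-leaning cells of the library labelled Tbx1neo2/neo2. Among 59, 57 and 58 members compared, 0 were at least 2-fold higher in S-leaning cells, where 1.18%, 3.34% and 3.83% of all genes were. Hist1h3a had the highest ratio, 8.78 against 4.69 CPM in control, and Hist1h1b stood at 1575 against 1018 CPM.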

How the data were processed

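Counts were deposited by the authors as raw UMIs per gene and cell, 1 matrix per library, made with Cell Ranger 3.0.0 against mm10 from 3′ gene expression libraries. The submitters' notes also name Seurat, which left no values in these files. Barcodes with fewer than 200 genes, or with 20% or more of their UMIs from mitochondrial genes, were left out (478, 243 and 675). Member UMIs were summed per library and class and divided by all UMIs there (CPM). Intervals are exact at 95% (Poisson, Clopper-Pearson or conditional binomial). No test was run, since each genotype had 1 library and cells are not replicates. A member or gene was compared when both libraries together held at least 30 UMIs. Doublets were kept, and the highest Scrublet scores were left out as an alternative.

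The members and lists were chosen with earlier results of these data known. Genes were named when among the 12 highest control sums, at either end of the ratios in a class (100 UMIs or more), among the 3 members at either end of the ratio between cells with and without Top2a or Mki67 UMIs, or at either end of another list. Others, such as Hist1h1d, Hist1h3c, Hist1h3a, Hist1h4m, Hist1h2ac and Hist1h2be, and the division by poly(A) signal, were chosen after values were seen. The S phase and G2/M lean divided each list by its mean share over marked cells. Software was Python 3.11.15, numpy 2.4.6, scipy 1.17.1, pandas 2.3.3, scanpy 1.11.5 and matplotlib 3.10.9. The summing and ratio code was checked on simulated data.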

Additional observations from a re-analysis of the deposited data

Results flagged for a closer look

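Hist1h2ap, an H2A gene, had ratios to control on opposite sides of 0 in different cell classes of the library labelled Tbx1neo2/neo2. The log2 ratio was 0.06 (0.02 to 0.09) in Epcam-positive cells and 0.09 (0.03 to 0.15) in Ptprc-positive cells, against −0.48 (−0.54 to −0.41) in Pdgfra-positive cells and −0.32 (−0.59 to −0.04) in Cdh5-positive cells. Each of these 4 counting intervals lies clear of 0, but median-of-ratios scaling lowers the ratios by 0.36 to 0.39, which puts all 4 classes below 0. The levels behind them were 314 and 327 CPM, 386 and 411 CPM, 246 and 177 CPM, and 205 and 165 CPM.

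Hist1h3a, an H3 gene, did so in Foxn11089/1089. Its log2 ratio was −0.45 (−0.73 to −0.16) in Epcam-positive cells and −0.84 (−1.45 to −0.28) in Ptprc-positive cells but 0.70 (0.13 to 1.31) in Pdgfra-positive cells, on 29 control UMIs there. Median-of-ratios scaling lowers the ratio in Pdgfra-positive cells by 0.17, after which its interval would hold 0. The difference between classes was not tested for either gene, since each genotype had 1 library.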

How the results depend on the processing

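No paired analysis was possible because each genotype had 1 library. The histone log2 ratios to control stayed below 0 in every class and alternative. Values that moved by more than their counting interval follow, with the library labelled Tbx1neo2/neo2 before Foxn11089/1089 and classes in the order Epcam, Pdgfra, Cdh5, Ptprc. Median-of-ratios size factors, which move all genes by 0.42 and 0.17 over all kept cells, gave −2.0, −2.47, −2.26 and −2.08, and −1.73, −1.75, −1.49 and −2.0; cells with over without Top2a or Mki67 UMIs gave 2.27 in control, 1.92 and 1.14; ratios to control were −2.30 and −2.04 in cells with and −1.89 and −0.88 in cells without these UMIs; and 0 members in place of 2 were 2-fold higher in the library labelled Tbx1neo2/neo2. Without Hist1h1b the ratios were −1.14, −1.61, −1.30 and −1.21, and −1.02, −1.17, −0.89 and −1.41. The mean over cells of each cell's share gave −1.64, −2.04, −2.19 and −1.90, and −1.46 (Epcam), −1.47 (Pdgfra) and −1.89 (Ptprc). Thinning to 2000 UMIs, with classes and kinds of cell set anew on the thinned counts, gave −1.58 and −2.01 (Epcam, Pdgfra), and −1.41, −1.26 and −0.94 (Epcam, Pdgfra, Cdh5). Cells with over without then gave 1.54, 1.69 and 1.52. Ratios to control were then −1.84 and −1.68 in cells with and −2.0 and −1.67 in cells without. Totals without mitochondrial genes, Gm42418, AY036118 and Lars2, an alternative chosen after seeing the data, gave −1.58, −2.04 and −1.69 (Epcam, Pdgfra, Ptprc), −1.49 (Epcam), and −1.82 and −1.70 in cells with these UMIs. A class minimum of 2 marker UMIs gave −2.03 (Cdh5), −1.46 (Pdgfra) and −1.77 (Ptprc). Leaving out the highest doublet scores gave −1.76 (Ptprc), 2.40 and 1.67 for cells with over without in control and Foxn11089/1089, and −1.89 and −1.71 in cells with. Cells with at least 2000 UMIs gave 2.45, 2.07 and 1.66 for cells with over without, and −0.94 in Foxn11089/1089 cells without. Requiring 3 UMIs of Top2a and Mki67 gave 2.59, 2.20 and 1.80, and −1.89 and −1.78 in cells with. A mitochondrial limit of 10% gave 2.04 in the library labelled Tbx1neo2/neo2. At a minimum of 100 UMIs, 23 and 23 members were 2-fold lower in Pdgfra-positive and 3 and 3 in Cdh5-positive cells; with 1 UMI in each library, 29 and 29 in Cdh5-positive cells. Depth limits the Cdh5 class most, at 48, 98 and 85 cells.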
